A study of Mus musculus with 12 samples.

Results

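The cytochrome P450 genes measured in mouse lung numbered 95 of the 22180 genes on the arrays. They were chosen by name, as every gene whose symbol is Cyp followed by a number, with Cyp1a1, Cyp1b1 and Cyp26b1 left out. A gene was represented by 1 probe, the brightest on average among those annotated with a single symbol, and only 4 of the 95 genes had more than 1 such probe (Cyp11a1, Cyp2c29, Cyp2c55 and Cyp2f2). No filter on low values was applied, so all 95 genes were tested, including 5 annotated as pseudogenes (Cyp2c53-ps, Cyp2d13, Cyp2d37-ps, Cyp4b1-ps2 and Cyp4f41-ps). Several members have near-identical copies, among them Cyp2a4 and Cyp2a5, the Cyp2b genes, many Cyp2c genes and Cyp4a12a and Cyp4a12b, and the separate values of such pairs are uncertain.

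Whole-lung RNA of 12 female mice aged 10 weeks was measured on Affymetrix arrays with a single biotin label, each mouse on its own array. The 4 groups of 3 mice were ventilated Zmpste24-/-, intact Zmpste24-/-, ventilated wild type and intact wild type. Zmpste24 encodes the metalloprotease that matures prelamin A, and mice without it are a model of accelerated ageing. The labels give the deficiency with no cell type restriction and do not state the strain. Ventilated mice received 2.5 h of mechanical ventilation with an inspiratory pressure of 15 cmH2O, no end-expiratory pressure, 100 breaths per min and an inspired oxygen fraction of 0.21, and intact mice are labelled as the baseline. Values are on the log2 scale throughout, and a difference of 1 is a factor of 2 in signal.

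Cytochrome P450 enzymes are haem proteins that insert an oxygen atom from molecular oxygen into a substrate, using electrons passed on by a reductase or, in mitochondria, by the ferredoxin Fdx1. Families 1 to 3 mostly oxidise foreign compounds, family 4 oxidises fatty acids and eicosanoids, and the remaining families act mainly on sterols, bile acids, steroid hormones, retinoids and vitamin D. In the mouse lung the club cells of the bronchioles are the best known site of P450 expression, with Cyp2f2 and Cyp2b10 as typical enzymes, and Cyp4b1 is another abundant lung form. Club-cell P450s make the reactive metabolites by which naphthalene and similar compounds injure the airway.

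The values of the targeted gene followed the genotype labels. Zmpste24 ran from 5.01 to 5.91 over the 6 Zmpste24-/- arrays, against 8.50 to 9.28 over the 6 wild type arrays, although the position of its probe relative to the deleted part is not given. Medians of the 12 arrays ranged from 5.35 to 5.42. All 8 alveolar type 2 markers were measured, and their mean lay between 11.17 and 11.55 on every array. Wild type intact replicate 2 stood apart by its hepatocyte signal. Alb, the serum albumin gene, was 11.52 on that array against 8.12 and 9.18 on the other wild type intact arrays. It was 9.18, 8.32 and 7.04 on the ventilated wild type arrays and 6.04 to 6.40 on the 6 Zmpste24-/- arrays. The signal was thus strongest on that array but not confined to it, and leaving the array out does not remove it. Results that rest on the array are given with and without it. The labels call the samples biological replicates, and p-values measure the spread between these mice.

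The array signal of the P450 genes spanned most of the scale. The mean of 31 of the 95 genes lay above the highest array median, 5.42, and that of 64 lay at or below it, and no detection call per probe was used here. Cyp2f2, the naphthalene-activating enzyme of club cells, ran from 12.85 to 13.14 over the 12 arrays, close to the array maxima of 13.38 to 13.47. Cyp4b1, which oxidises fatty acids and activates several lung toxicants, ran from 11.01 to 11.80, Cyp2b10, the phenobarbital-inducible enzyme, from 10.56 to 11.64, and Cyp2s1, an epithelial form, from 9.77 to 10.17. By role, a mean above 5.42 was found for 11 of 49 xenobiotic-type genes, 12 of 28 fatty acid and eicosanoid genes, 6 of 7 sterol and bile acid genes, 1 of 5 retinoid and vitamin D genes, the orphan enzyme gene Cyp20a1 and 0 of 5 steroid hormone synthesis genes. Cyp2c55 is among the 11 by its brighter probe (7.04 to 7.85), while its other probe ran from 3.33 to 3.88.

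Ventilation of Zmpste24-/- lungs raised 3 P450 genes and lowered 5. The genes that rose were Cyp51, the lanosterol demethylase of cholesterol synthesis, Cyp4f39, the mouse counterpart of the human ultra-long-chain fatty acid hydroxylase CYP4F22, and Cyp2j8. Those that fell were Cyp27a1, the mitochondrial sterol hydroxylase of bile acid and oxysterol synthesis, the fatty acid and eicosanoid oxidases Cyp4f13, Cyp2j9 and Cyp2u1, and Cyp2a5, the coumarin hydroxylase. These were 3.16% and 5.26% of the 95 genes at an adjusted p under 0.05 (limma, Benjamini-Hochberg over all genes), while 8.89% of all genes rose and 7.52% fell. The share of P450 genes that changed, 8.42%, was below the 16.4% of all genes, and the median difference of the P450 genes was -0.03, against -0.01 for all genes.

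Ventilation of wild type lungs raised 3 P450 genes (Cyp4f39, Cyp51 and Cyp2b10) and lowered 4 (Cyp27a1, Cyp2u1, Cyp2d22, a xenobiotic-type enzyme, and Cyp4a14, a fatty acid hydroxylase). Of all genes 3.67% rose and 3.53% fell, so the 7.37% of P450 genes that changed was near the background of 7.2%. The median difference of the P450 genes was -0.04, against -0.01 for all genes. Cyp51 and Cyp4f39 rose and Cyp27a1 and Cyp2u1 fell in both genotypes, which is 4 of the 11 genes that passed in either. The matching share over all genes is not given, so this overlap cannot be set against a background. The 2 ventilation comparisons share no arrays.

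**Figure D1:**
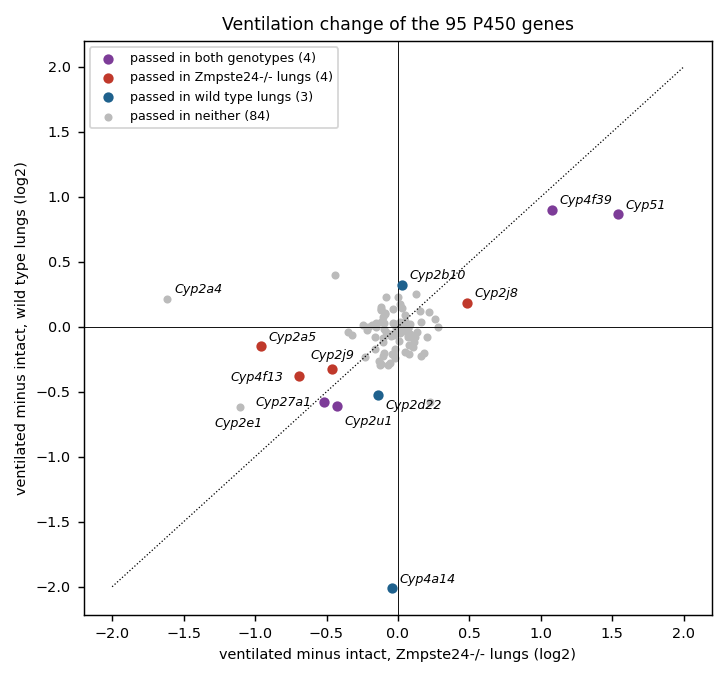
Difference between ventilated and intact lungs (log2) of the 95 P450 genes, in Zmpste24-/- lungs on the x axis and in wild type lungs on the y axis. Each point is 1 gene, coloured by the genotype in which it passed an adjusted p of 0.05, with equality on the dotted line. Cyp51 and Cyp4f39 lie at the upper right, Cyp27a1 and Cyp2u1 at the lower left, and 84 genes passed in neither.

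Cyp51 had 8.30, 8.40 and 8.67 in ventilated and 6.92, 6.57 and 7.26 in intact Zmpste24-/- lungs. In wild type lungs it had 8.19, 7.98 and 7.64 when ventilated and 6.86, 7.26 and 7.10 when intact. Every ventilated array was above every intact array in either genotype. The difference was 1.54 ± 0.18 in Zmpste24-/- lungs, a 2.91-fold rise (adjusted p = 6.53e-05), and 0.87 ± 0.18 in wild type lungs, a 1.82-fold rise (adjusted p = 0.00977). The larger rise in Zmpste24-/- lungs was not established, since the difference between the 2 ventilation changes was 0.68 ± 0.25 (adjusted p = 0.289).

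Cyp4f39 had 7.29, 7.84 and 7.51 in ventilated and 6.51, 6.39 and 6.49 in intact Zmpste24-/- lungs, against 7.66, 7.41 and 7.68 in ventilated and 6.32, 6.89 and 6.83 in intact wild type lungs. The ventilated arrays were again all above the intact ones. It rose 2.12-fold in Zmpste24-/- lungs (1.08 ± 0.16, adjusted p = 0.000369) and 1.87-fold in wild type lungs (0.90 ± 0.16, adjusted p = 0.00352).

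Cyp27a1 had 6.91, 6.84 and 6.84 in ventilated and 7.50, 7.33 and 7.29 in intact Zmpste24-/- lungs, against 7.34, 7.39 and 7.20 in ventilated and 7.92, 7.82 and 7.93 in intact wild type lungs. It was lowest in ventilated Zmpste24-/- lungs and highest in intact wild type lungs, with the other groups between them. Ventilation changed it by -0.52 ± 0.08 in Zmpste24-/- lungs (adjusted p = 0.000892) and by -0.58 ± 0.08 in wild type lungs (adjusted p = 0.00112). It was also lower in Zmpste24-/- than in wild type lungs, with differences of -0.45 ± 0.08 when ventilated (adjusted p = 0.00422) and -0.51 ± 0.08 when intact (adjusted p = 0.00332). Cyp27a1 was the only one of the 95 genes to pass in all 4 comparisons.

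Fdx1, the ferredoxin that supplies electrons to Cyp27a1 and the other mitochondrial P450s, went the other way in each of these 4 comparisons. Its values were 8.23, 8.35 and 8.36 in ventilated and 7.67, 7.51 and 7.60 in intact Zmpste24-/- lungs, against 7.61, 7.43 and 7.58 in ventilated and 7.07, 7.10 and 7.32 in intact wild type lungs. Ventilation raised it by 0.72 ± 0.09 in Zmpste24-/- lungs (adjusted p = 0.000119) and by 0.38 ± 0.09 in wild type lungs (adjusted p = 0.022). It was higher in Zmpste24-/- than in wild type lungs by 0.78 ± 0.09 when ventilated (adjusted p = 0.000256) and by 0.43 ± 0.09 when intact (adjusted p = 0.0131).

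Cyp2u1 had 5.67, 5.58 and 5.53 in ventilated and 6.19, 5.85 and 6.02 in intact Zmpste24-/- lungs, against 5.75, 5.55 and 5.79 in ventilated and 6.21, 6.35 and 6.37 in intact wild type lungs. Each ventilated array was below each intact array of its genotype. It fell by 0.43 in Zmpste24-/- lungs (SE 0.10, adjusted p = 0.0103) and by 0.61 in wild type lungs (SE 0.10, adjusted p = 0.00266). Endothelial markers moved in the same direction as Cyp27a1 and Cyp2u1: 6 of 8 fell with ventilation in Zmpste24-/- lungs (7.52% of all genes) and 7 of 8 in wild type lungs (3.53% of all genes). The mean of that list was 9.65 to 9.80 in ventilated and 10.03 to 10.21 in intact Zmpste24-/- lungs, and 9.78 to 9.87 in ventilated and 10.36 to 10.44 in intact wild type lungs. In whole lung, fewer cells of a type and less RNA per cell cannot be told apart, and the part of this shift in the 2 genes was not tested.

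The other genes that passed with ventilation did so in 1 genotype. Cyp4f13 had 7.50, 7.39 and 6.93 in ventilated and 8.03, 8.05 and 7.81 in intact Zmpste24-/- lungs, a difference of -0.69 ± 0.13 (adjusted p = 0.00224). In wild type lungs it had 7.50, 7.66 and 7.56 when ventilated and 7.85, 8.03 and 7.99 when intact, a difference of -0.38 ± 0.13 that did not pass (adjusted p = 0.0979) although the arrays did not overlap. Cyp2j9, an arachidonic acid epoxygenase, had 6.05, 5.88 and 5.95 in ventilated and 6.40, 6.40 and 6.48 in intact Zmpste24-/- lungs, a difference of -0.46 ± 0.11 (adjusted p = 0.00816). In wild type lungs Cyp2j9 had 6.39, 6.36 and 6.12 when ventilated and 6.81, 6.60 and 6.42 when intact, and the difference of -0.32 ± 0.11 did not pass (adjusted p = 0.0885). Both genes thus had negative differences in both genotypes, and no test separated the genotypes.

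Cyp2j8, a member of the same subfamily, lay below the array medians, at 4.44, 4.56 and 4.42 in ventilated and 3.85, 4.08 and 4.03 in intact Zmpste24-/- lungs (difference 0.48 ± 0.13, adjusted p = 0.0168). It did not pass without Zmpste24-/- ventilated replicate 2 (adjusted p = 0.0686) or Zmpste24-/- intact replicate 1 (adjusted p = 0.0691). Cyp2d22 had 8.18, 8.45 and 8.28 in ventilated and 8.83, 8.75 and 8.90 in intact wild type lungs, which did not overlap, and fell by 0.52 (SE 0.10, adjusted p = 0.00827). In Zmpste24-/- lungs Cyp2d22 had 8.56, 8.70 and 8.41 when ventilated and 8.53, 8.78 and 8.78 when intact, which overlapped.

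**Figure D2:**
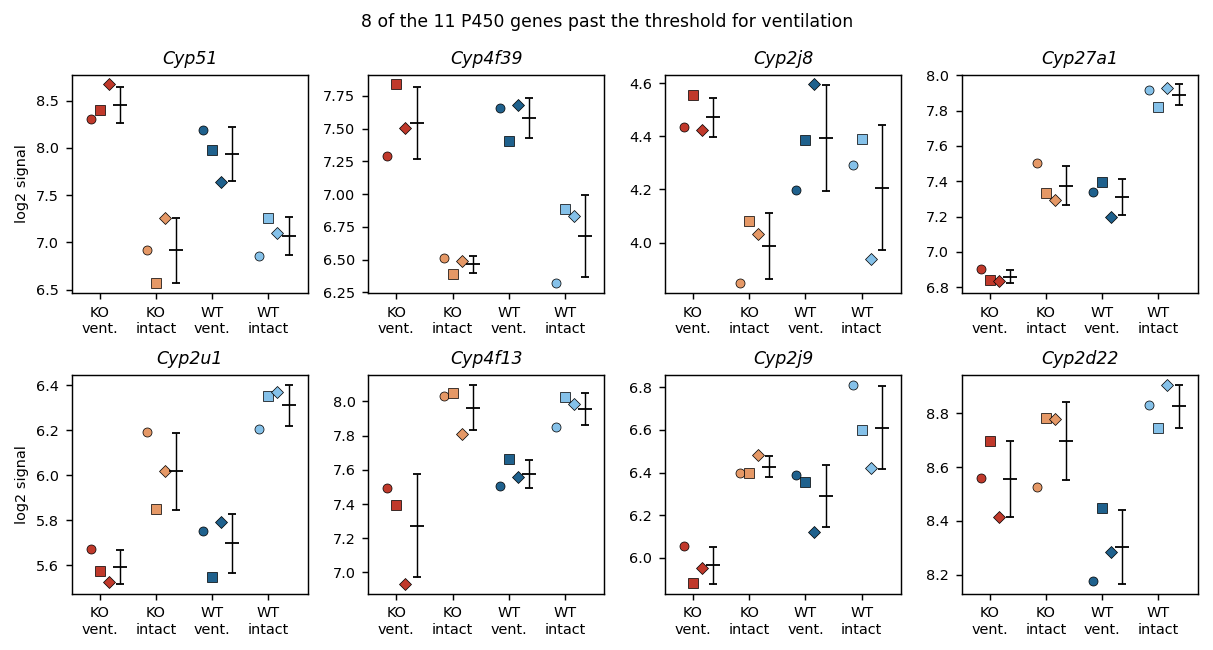
Log2 signal (y axes, each with its own range) of 8 of the 11 P450 genes that passed for ventilation, in ventilated (vent.) and intact lungs of Zmpste24-/- (KO) and wild type (WT) mice. Points are single arrays, with circles, squares and diamonds for replicates 1, 2 and 3, and the bars are the mean ± SD of 3 mice. Cyp51 and Cyp4f39 are higher and Cyp27a1 and Cyp2u1 lower in ventilated than in intact lungs of both genotypes, with no overlap.

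The promoters of Cyp51, Cyp4f39 and Cyp27a1, 3 of the 4 genes that passed in the same direction in both genotypes, are shown because each kept its own direction. Each is the 250 bases before the transcription start from RefSeq (GRCm38.p6), read 5′ to 3′ on the strand of the gene, with matches to a searched motif in capitals. A window was on hand for 69 of the 95 genes.
Cyp51, chr5:4104698-4104947, minus strand: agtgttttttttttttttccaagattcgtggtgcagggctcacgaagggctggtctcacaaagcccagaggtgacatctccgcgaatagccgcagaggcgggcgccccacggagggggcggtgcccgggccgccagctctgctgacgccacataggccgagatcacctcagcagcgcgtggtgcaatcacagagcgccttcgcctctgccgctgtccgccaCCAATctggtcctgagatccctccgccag
Cyp4f39, chr17:32452473-32452722, plus strand: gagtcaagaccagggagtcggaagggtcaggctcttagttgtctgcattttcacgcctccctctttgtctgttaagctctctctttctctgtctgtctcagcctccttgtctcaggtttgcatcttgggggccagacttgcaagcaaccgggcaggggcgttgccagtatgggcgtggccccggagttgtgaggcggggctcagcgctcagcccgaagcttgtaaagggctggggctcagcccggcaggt
Cyp27a1, chr1:74713285-74713534, plus strand: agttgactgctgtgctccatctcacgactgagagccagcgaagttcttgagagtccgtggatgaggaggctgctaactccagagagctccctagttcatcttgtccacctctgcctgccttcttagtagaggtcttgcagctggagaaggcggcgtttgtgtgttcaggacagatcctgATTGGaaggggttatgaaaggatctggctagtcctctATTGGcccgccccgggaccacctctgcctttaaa

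In all, 4 motifs were searched on both strands of these windows and of all 32851 mouse windows of the same length, 77 of which belong to P450 genes. Of the sterol regulatory element only the form TCACNCCAC was searched, and it was in 0 of the 77 windows and in 1.05% of all windows. Other forms of this element were not searched, so their presence in the Cyp51 window was not tested. CCAAT was in 34 of the 77 windows (44.2%) and in 33.8% of all windows, with 1 match in Cyp51, starting 29 bases before the start, and 2 in Cyp27a1, starting 71 and 34 bases before it. The AP-1 site TGANTCA was in 5 of the 77 windows (6.49%) and in 6.75% of all windows, and the D-box TTANGTAA was in 1 of the 77 and in 2.06% of all windows. A window with several matches counted once. Cyp4f39 held none of these letters in this window.

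Between Zmpste24-/- and wild type lungs P450 genes differed in both directions. In ventilated lungs 5 were higher (Cyp3a13, Cyp2b10, Cyp4b1, Cyp2b9 and Cyp4f15, 5.26% of the 95 genes) and 1 was lower (Cyp27a1, 1.05%). Of all genes 4.72% were higher and 6.08% lower, so the share of higher P450 genes was near the background. In either direction 6.32% of the 95 genes passed, against 10.8% of all genes. In intact lungs 5 were higher (Cyp2b10, Cyp3a13, Cyp4f15, Cyp39a1 and Cyp2a5, 5.26%) and 3 lower (Cyp27a1, Cyp20a1 and Cyp4a14, 3.16%). Of all genes 2.2% were higher and 4.11% lower there. In either direction 8.42% of the 95 genes passed, against 6.31% of all genes. The median difference of the P450 genes was -0.0042 in ventilated lungs, against 0.01 for all genes, and -0.01 in intact lungs, as for all genes. Cyp2b10, Cyp3a13 and Cyp4f15 were higher and Cyp27a1 lower in both, 4 of the 10 genes that passed in either, and these 2 comparisons share no arrays. The matching share over all genes is not given here either. The intact count fell to 4 without Zmpste24-/- intact replicate 1 or 3 and to 5 without wild type intact replicate 2 or 3 or any 1 of the ventilated Zmpste24-/- replicates, and the ventilated count was 10 without wild type ventilated replicate 1.

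Cyp2b10 had 11.48, 11.64 and 11.36 in ventilated Zmpste24-/- lungs, against 11.02, 10.95 and 10.97 in ventilated wild type lungs. In intact lungs it had 11.44, 11.48 and 11.48 without Zmpste24, against 10.74, 10.66 and 10.56 in wild type. All 6 Zmpste24-/- arrays were above all 6 wild type arrays. The difference was 0.52 ± 0.08 when ventilated (adjusted p = 0.0021) and 0.81 ± 0.08 when intact, a 1.75-fold higher level (adjusted p = 0.000249). Ventilation raised Cyp2b10 in wild type lungs by 0.32 ± 0.08 (adjusted p = 0.0352). That call was lost without wild type intact replicate 2 or 3 (adjusted p = 0.081 and 0.111), any 1 of the ventilated wild type replicates (0.0965, 0.0651 and 0.0974) or Zmpste24-/- intact replicate 3 (0.0508). In Zmpste24-/- lungs its ventilation difference was 0.03 ± 0.08, and the difference between the genotypes' ventilation changes, -0.29 ± 0.12, did not pass (adjusted p = 0.351).

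Cyp3a13, a member of the subfamily that oxidises a wide range of drugs and steroids, had 5.97, 6.28 and 5.82 in ventilated Zmpste24-/- lungs, against 5.34, 5.06 and 4.91 in ventilated wild type lungs. In intact lungs the values were 6.32, 6.23 and 6.00 without Zmpste24 and 5.47, 5.05 and 5.28 in wild type, and the genotypes did not overlap in either state. The differences were 0.92 ± 0.15 when ventilated (adjusted p = 0.00178) and 0.91 ± 0.15 when intact (adjusted p = 0.00309). Neither ventilation difference of Cyp3a13 passed, at -0.16 ± 0.15 in Zmpste24-/- and -0.17 ± 0.15 in wild type lungs.

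Cyp4f15, of the subfamily that oxidises leukotrienes and fatty acids, had 6.11, 6.02 and 6.32 in ventilated Zmpste24-/- lungs, against 5.81, 5.43 and 4.99 in ventilated wild type lungs, a difference of 0.74 ± 0.18 (adjusted p = 0.0183). In intact lungs it had 6.71, 6.35 and 6.44 without Zmpste24 and 5.24, 5.40 and 5.72 in wild type, a 2.06-fold higher level (1.04 ± 0.18, adjusted p = 0.00471). The groups did not overlap in either state. The ventilated difference did not pass without Zmpste24-/- ventilated replicate 3 (adjusted p = 0.0778) or wild type ventilated replicate 2 or 3 (adjusted p = 0.0538 and 0.0756).

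Cyp4b1 had 11.80, 11.76 and 11.54 in ventilated Zmpste24-/- lungs, against 11.19, 11.28 and 11.01 in ventilated wild type lungs, and rose by 0.54 ± 0.09 (adjusted p = 0.00254). In intact lungs it had 11.78, 11.77 and 11.71 without Zmpste24 and 11.38, 11.51 and 11.42 in wild type. These did not overlap either, but the difference of 0.31 ± 0.09 missed the threshold (adjusted p = 0.0625). The pseudogene Cyp4b1-ps2, whose sequence is related to Cyp4b1, differed by 0.56 ± 0.17 between the ventilated genotypes, which did not pass (adjusted p = 0.0551).

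The remaining genotype differences passed in 1 state each. Cyp2b9, a steroid-inducible liver form below the array medians here, had 4.71, 4.89 and 4.44 in ventilated Zmpste24-/- and 4.18, 4.11 and 3.65 in ventilated wild type lungs (difference 0.70 ± 0.16, adjusted p = 0.0133). It did not pass without Zmpste24-/- ventilated replicate 2 (adjusted p = 0.0596) or wild type ventilated replicate 3 (adjusted p = 0.0608), and its sequence is close to that of Cyp2b10. Cyp39a1, an oxysterol hydroxylase of bile acid synthesis, had 8.76, 8.45 and 8.60 in intact Zmpste24-/- and 8.32, 8.15 and 8.11 in intact wild type lungs (difference 0.41 ± 0.10, adjusted p = 0.0302). Cyp20a1, an enzyme with no established substrate, had 8.33, 8.08 and 8.24 in intact Zmpste24-/- and 8.51, 8.62 and 8.62 in intact wild type lungs (difference -0.36 ± 0.10, adjusted p = 0.0463). Without wild type intact replicate 2 the adjusted p was 0.0898 for Cyp39a1 and 0.122 for Cyp20a1. Cyp20a1 lost its call without any 1 array apart from wild type ventilated replicates 1 and 2, with adjusted p from 0.0504 to 0.154 where it was lost. Cyp39a1 also did not pass without Zmpste24-/- intact replicate 1 or 3 or wild type intact replicate 3 (adjusted p = 0.107, 0.0888 and 0.0836).

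**Figure D3:**
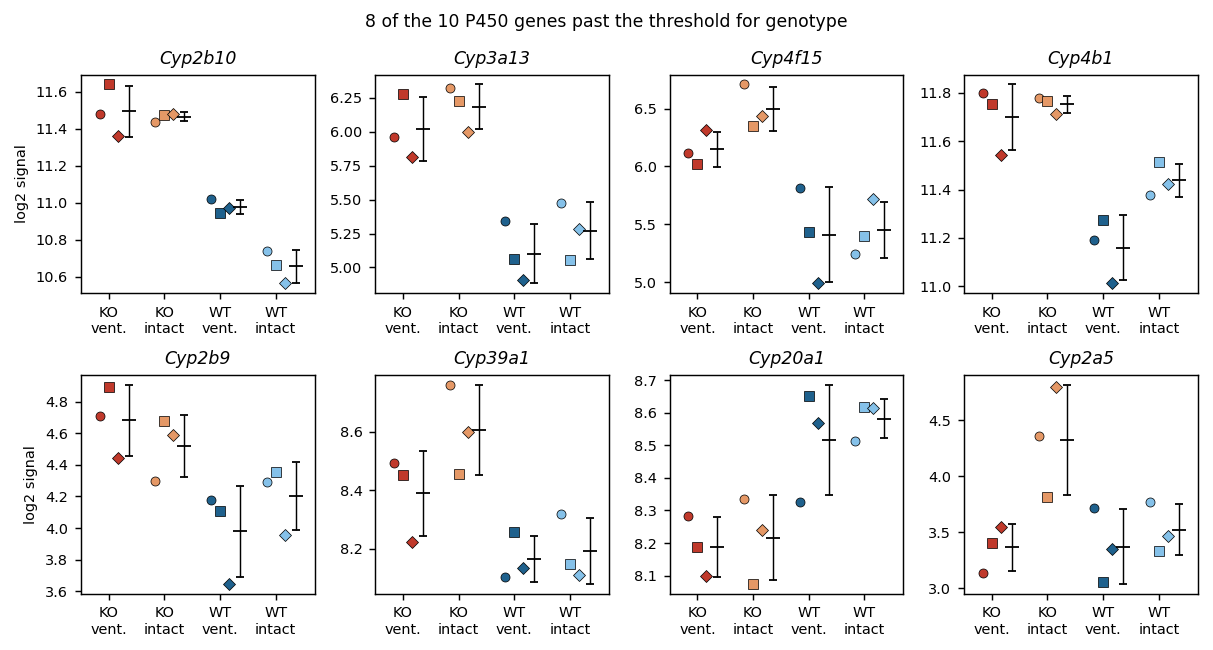
Log2 signal (y axes, each with its own range) of 8 of the 10 P450 genes that passed between genotypes, in ventilated (vent.) and intact lungs of Zmpste24-/- (KO) and wild type (WT) mice. Points are single arrays, with circles, squares and diamonds for replicates 1, 2 and 3, and the bars are the mean ± SD of 3 mice. All Zmpste24-/- arrays lie above all wild type arrays for Cyp2b10, Cyp3a13, Cyp4f15 and Cyp4b1.

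The promoters of Cyp2b10, Cyp3a13 and Cyp4f15, the genes higher in Zmpste24-/- lungs in both states, are shown in the same way and searched for the same 4 motifs.
Cyp2b10, chr7:25897408-25897657, plus strand: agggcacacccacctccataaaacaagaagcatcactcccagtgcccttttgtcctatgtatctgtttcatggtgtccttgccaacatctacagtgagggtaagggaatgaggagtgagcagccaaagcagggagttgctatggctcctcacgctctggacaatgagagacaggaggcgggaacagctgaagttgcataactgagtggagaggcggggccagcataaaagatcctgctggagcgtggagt
Cyp3a13, chr5:137921620-137921869, minus strand: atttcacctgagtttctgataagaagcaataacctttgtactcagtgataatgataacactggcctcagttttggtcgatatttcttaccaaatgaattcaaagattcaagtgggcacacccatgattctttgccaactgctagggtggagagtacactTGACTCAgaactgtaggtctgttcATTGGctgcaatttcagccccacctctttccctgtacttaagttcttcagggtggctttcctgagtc
Cyp4f15, chr17:32685409-32685658, plus strand: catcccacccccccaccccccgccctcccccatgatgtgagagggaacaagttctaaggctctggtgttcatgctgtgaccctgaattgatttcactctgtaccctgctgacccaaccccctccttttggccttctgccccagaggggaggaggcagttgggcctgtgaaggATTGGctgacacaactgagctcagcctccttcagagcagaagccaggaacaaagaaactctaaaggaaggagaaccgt

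Cyp3a13 held the AP-1 letters TGACTCA from 91 to 85 bases before the start and 1 match to CCAAT, and Cyp4f15 held 1 match to CCAAT. Both CCAAT matches are on the opposite strand and are printed as ATTGG, as are those of Cyp27a1. Cyp2b10 held none of the 4. The 3 windows thus shared no searched motif, which says only that these letters are not in the windows of all 3.

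The interaction, the ventilation change in Zmpste24-/- lungs minus that in wild type lungs, was past the threshold for 0 of the 95 genes by limma, where 0.316% of all genes passed (0.266% higher and 0.0496% lower). At an unadjusted p under 0.05 the P450 genes were Cyp4b1-ps2, Cyp51, Cyp4a14, Cyp2d22, Cyp2a5, Cyp2b10, Cyp2c38 and Cyp2a4. They were 8 of the 95, where 11.7% of all genes (2598) were under the same limit. A gene that passed for ventilation in 1 genotype is therefore not shown to respond differently in the other.

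Of the 6 genes listed as typical lung P450s, 1 fell (Cyp2a5) with ventilation in Zmpste24-/- lungs, where 7.52% of all genes fell. In wild type lungs 1 rose (Cyp2b10), where 3.67% of all genes rose. Against wild type, 2 were higher in ventilated Zmpste24-/- lungs (Cyp2b10 and Cyp4b1), where 4.72% of all genes were higher. In intact Zmpste24-/- lungs 2 were higher (Cyp2b10 and Cyp2a5), where 2.2% of all genes were higher. Cyp2f2, Cyp2s1 and Cyp2e1 did not pass anywhere. Cyp2f2 had 12.97, 13.00 and 12.92 in ventilated and 13.14, 13.11 and 13.14 in intact Zmpste24-/- lungs, with a difference of -0.16 ± 0.08 (adjusted p = 0.196), and its probe is near the top of the scale. A second, dimmer probe of Cyp2f2 ran from 5.37 to 7.69 and differed by -1.02 ± 0.30 with ventilation in Zmpste24-/- lungs (adjusted p = 0.0331 over the 1-symbol probes) and by -0.55 ± 0.30 in wild type lungs (adjusted p = 0.338), so the probes disagreed on the first call. Cyp2s1 differed by -0.08 to 0.05 over the 4 comparisons.

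Cyp2a5 lay below the array medians. It had 3.14, 3.41 and 3.55 in ventilated and 4.36, 3.81 and 4.80 in intact Zmpste24-/- lungs, against 3.72, 3.06 and 3.35 in ventilated and 3.78, 3.33 and 3.47 in intact wild type lungs. The intact Zmpste24-/- arrays were the highest group, and Cyp2a5 fell with ventilation by 0.96 (SE 0.22, adjusted p = 0.00849) and was 0.80 ± 0.22 above intact wild type (adjusted p = 0.0469). The genotype call was lost without any 1 array apart from Zmpste24-/- intact replicate 2 and wild type ventilated replicates 1 and 2, with adjusted p from 0.0529 to 0.186 where it was lost and 0.147 without wild type intact replicate 2. Its near-identical neighbour Cyp2a4, a testosterone hydroxylase, had 5.47, 5.80 and 5.94 in ventilated and 8.05, 6.07 and 7.94 in intact Zmpste24-/- lungs, against 7.45, 4.90 and 5.05 in ventilated and 5.92, 5.01 and 5.81 in intact wild type lungs. Cyp2a4 differed by -1.62 ± 0.60 with ventilation in Zmpste24-/- lungs and by 1.77 ± 0.60 between intact genotypes and did not pass (adjusted p = 0.0881 and 0.102).

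Cyp2a4 was highest on Zmpste24-/- intact replicates 1 and 3 and wild type ventilated replicate 1. The mean of the 8 club cell markers was 9.87 to 10.69 in ventilated and 11.17, 9.40 and 10.93 in intact Zmpste24-/- lungs, against 10.44 to 11.19 in ventilated and 9.24 to 10.82 in intact wild type lungs. The secretory marker Scgb3a1 had 8.65, 8.75 and 10.33 in ventilated and 11.53, 7.15 and 11.04 in intact Zmpste24-/- lungs, against 11.56, 10.58 and 10.12 in ventilated and 8.58, 7.51 and 10.97 in intact wild type lungs, and its 3 highest arrays were the same 3. On wild type ventilated replicate 2 and wild type intact replicate 3 Scgb3a1 had 10.58 and 10.97, where Cyp2a4 had only 4.90 and 5.81. Of the other club markers only Scgb3a2 had the same 3 highest arrays. Scgb1a1, Aldh1a1, Gabrp, Retnla, Bpifa1 and Lypd2 did not, and Aldh1a1 and Retnla were highest on Zmpste24-/- ventilated replicate 3 (12.36 and 9.47). Of the 8 club markers, 2 fell with ventilation in Zmpste24-/- lungs (Gabrp and Lypd2), where 7.52% of all genes fell. In wild type lungs 0 passed (limma, and 0 also at an unadjusted p under 0.05). Gabrp, 1 of the 8, was higher in intact Zmpste24-/- lungs, where 2.2% of all genes were higher. Between Zmpste24-/- and wild type lungs, where Cyp2b10 was higher in both states, the median difference of the club list was -0.30 when ventilated and 0.43 when intact. When ventilated 0 of 8 passed (limma, and 0 also at an unadjusted p under 0.05). When intact 1 of 8 passed and 4 of 8 had an unadjusted p under 0.05, as did 20.9% of all genes. The part of airway tissue content in these P450 values was not tested.

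Cyp2e1, the ethanol-oxidising enzyme, had 7.01, 7.35 and 7.45 in ventilated and 9.99, 6.99 and 8.13 in intact Zmpste24-/- lungs, against 7.55, 7.64 and 6.68 in ventilated and 7.30, 8.79 and 7.64 in intact wild type lungs. No comparison passed, and Zmpste24-/- intact replicate 1 was highest by more than a log2 unit. That array was also the highest for the adipocyte markers Cidec (9.32) and Plin1 (7.04), and the mean of the 6 measured adipocyte markers was 7.07 there and 5.76 to 6.16 on the other 11 arrays. Wild type intact replicate 2, the array with the strongest hepatocyte signal, was second highest for Cyp2e1 (8.79), which is also listed as liver-type. The part of adipocyte or liver transcripts in the Cyp2e1 values was not tested.

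**Figure D4:**
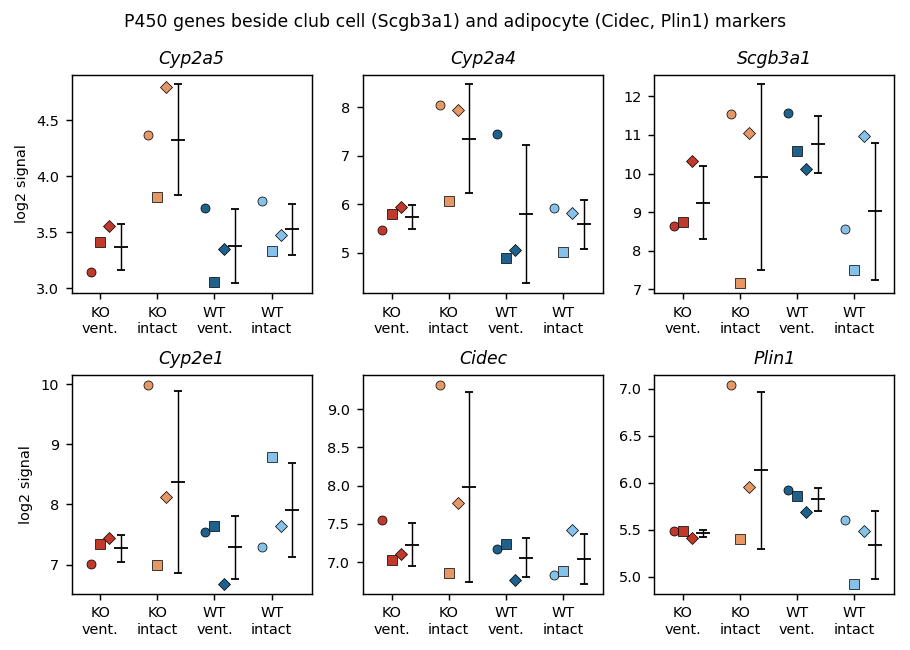
Log2 signal (y axes, each with its own range) of Cyp2a5, Cyp2a4 and Cyp2e1 beside the club cell marker Scgb3a1 and the adipocyte markers Cidec and Plin1, in ventilated (vent.) and intact lungs of Zmpste24-/- (KO) and wild type (WT) mice. Points are single arrays, with circles, squares and diamonds for replicates 1, 2 and 3, and the bars are the mean ± SD of 3 mice. The 3 arrays highest for Cyp2a4 are also the highest for Scgb3a1, which is nearly as high on wild type intact replicate 3, where Cyp2a4 is 5.81. Of the club markers not shown, only Scgb3a2 has the same 3 highest arrays. Cyp2e1, Cidec and Plin1 are highest on Zmpste24-/- intact replicate 1.

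Many P450 genes are expressed mainly in liver, and 35 of the 95 were listed as such to examine the hepatocyte signal of wild type intact replicate 2. That array was the highest of the 12 for 12 of the 35 liver-type genes (34.3%), for 6 of the other 60 P450 genes (10.0%) and for 9.72% of all genes, but for 17 of 18 measured hepatocyte markers (94.4%). By size, taken against the highest of the other 11 arrays, only 1 of the 35 liver-type P450 genes stood 1 log2 unit or more above. That measure misses a gene that was higher on 1 other array, as Cyp2e1 was on Zmpste24-/- intact replicate 1 (-1.20). The other 11 also include arrays with hepatocyte signal, as Alb was 9.18 on wild type intact replicate 3 and on wild type ventilated replicate 1. Cyp4a14, a fatty acid hydroxylase induced through the receptor Ppara, exceeded the highest of the other 11 arrays by 2.62, and next came Cyp2d26 at 0.39 and Cyp2c70 at 0.36. Among hepatocyte markers 11 of 18 (61.1%) exceeded it by 1 or more, including the urinary protein gene Mup20 by 3.61, the antitrypsin gene Serpina1c by 3.20, Alb by 2.34, the fibrinogen genes Fgb by 1.86 and Fga by 1.40, Mup3 by 1.73 and Apoh by 1.07. The same held of Cps1, Fabp1, Ahsg and Apoa2, while Tat was 0.57 below another array. The median excess was -0.05 over the 35 liver-type P450 genes and 1.37 over the hepatocyte markers, against -0.25 over all genes. These counts leave out probes shared by several genes. The probe of Cyp4a10 and Cyp4a31 had 7.80 on that array and at most 5.13 on the others. The probe of Cyp2c67 and Cyp2c68 had 4.81 and at most 3.86. None of the remaining shared probes was highest on that array.

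**Figure D5:**
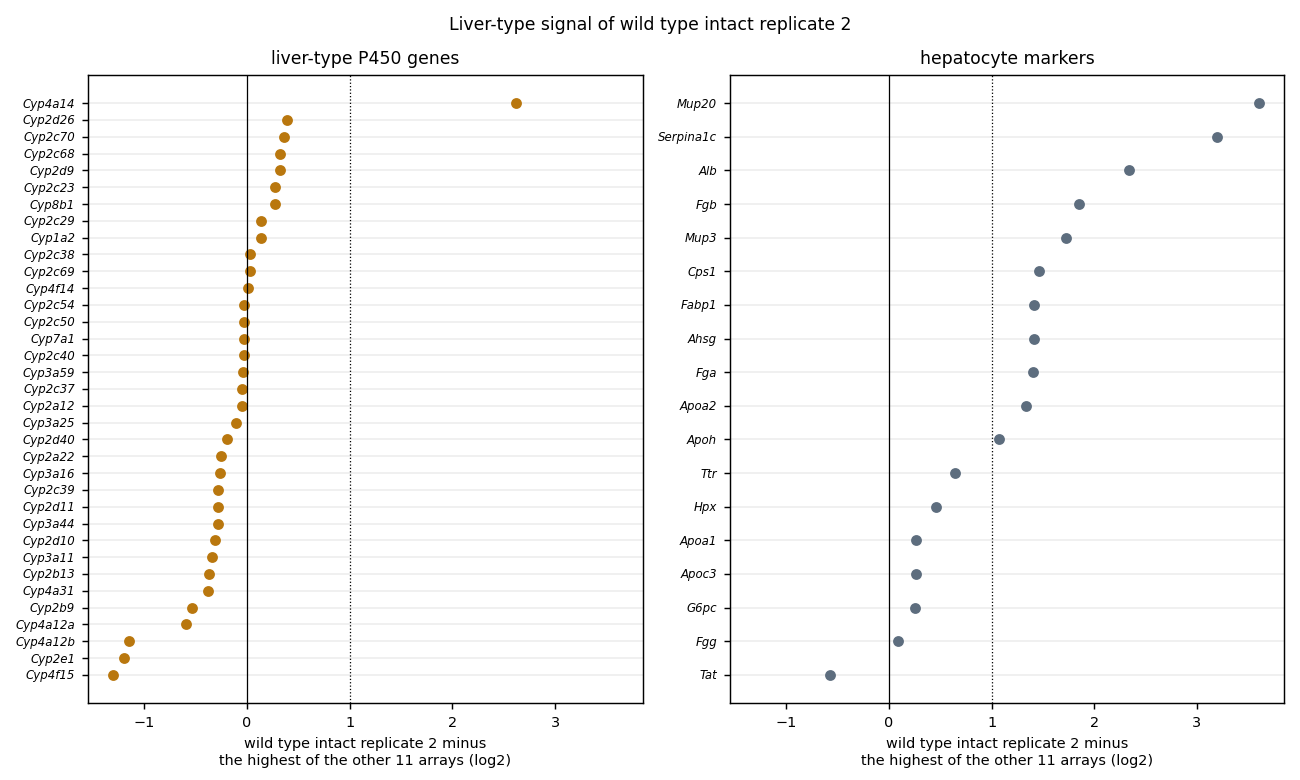
Signal of wild type intact replicate 2 minus the highest of the other 11 arrays (log2, x axis), for the 35 liver-type P450 genes on the left and the 18 measured hepatocyte markers on the right, 1 row per gene. The solid line marks equality and the dotted line an excess of 1. Cyp4a14 alone passes that line among the P450 genes, at 2.62, and 11 of the hepatocyte markers do.

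Cyp4a14 had 3.48, 3.63 and 3.75 in ventilated and 3.62, 3.90 and 3.47 in intact Zmpste24-/- lungs, against 3.57, 3.75 and 3.34 in ventilated and 4.46, 7.43 and 4.82 in intact wild type lungs. All intact wild type arrays were above all of the others. It fell with ventilation in wild type lungs by 2.01 (SE 0.52, adjusted p = 0.0339) and was lower in intact Zmpste24-/- than in intact wild type lungs (-1.91 ± 0.52, adjusted p = 0.0463). Without wild type intact replicate 2 these differences were -1.08 ± 0.16 (adjusted p = 0.00237) and -0.98 ± 0.16 (adjusted p = 0.00661), smaller but past the threshold. With all intact wild type arrays kept, the ventilation call was lost without any 1 ventilated wild type array (adjusted p = 0.0753, 0.0623 and 0.119), and the genotype call without any 1 array of the other groups (adjusted p from 0.0542 to 0.141). The 2 comparisons share the intact wild type arrays. Hepatocyte markers moved in the same direction: 3 of 18 fell with ventilation in wild type lungs (3.53% of all genes) and 4 of 18 were lower in intact Zmpste24-/- lungs (4.11% of all genes). At an unadjusted p under 0.05 (limma, either direction) the counts were 7 and 15 of 18, against 20.4% and 20.9% of all genes. The median differences of the hepatocyte list were -0.63 and -0.91. The mean of the hepatocyte list was 4.83 to 4.95 in ventilated and 4.72 to 4.77 in intact Zmpste24-/- lungs. In wild type lungs it was 4.97 to 5.79 when ventilated and 5.23, 7.45 and 5.82 when intact. Every intact wild type value was above those of the Zmpste24-/- arrays. The differences without wild type intact replicate 2 therefore still rest on arrays with hepatocyte signal. The part of liver transcripts in the Cyp4a14 result was not tested.

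Of the 78 P450 genes that passed in no comparison, 75 differed by under 0.5 in all 4, and the others were Cyp2a4, Cyp2e1 and Cyp4b1-ps2. None of the 5 steroid hormone synthesis genes (Cyp11a1, Cyp11b1, Cyp11b2, Cyp17a1 and Cyp21a1) or the 5 retinoid and vitamin D genes passed, and of the second group only Cyp2r1 had a mean above 5.42. Cyp2r1, the vitamin D hydroxylase, ran from 5.74 to 6.25. Of the 17 P450 genes that passed anywhere, 5 were of the xenobiotic type, 8 of the fatty acid and eicosanoid type, 3 of the sterol and bile acid type, and the other was Cyp20a1. Means below the array medians were found for 4 of the 17 (Cyp2a5, Cyp2b9, Cyp2j8 and Cyp4a14). The share of all genes that passed anywhere is not given.

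Genes related to P450 enzymes were read from a list of 32, of which 29 were measured. These were 9 genes of electron supply and haem and 12 nuclear receptors and factors that induce P450 genes. The list also held 6 measured epoxide hydrolases and flavin monooxygenases and 2 prostanoid synthases with a P450 fold. The next counts are of all 29. With ventilation 4 rose (13.8%) and 7 fell (24.1%) in Zmpste24-/- lungs, where 8.89% of all genes rose and 7.52% fell. In wild type lungs 3 rose (10.3%) and 2 fell (6.9%), where 3.67% of all genes rose and 3.53% fell. Between Zmpste24-/- and wild type lungs 4 were higher when ventilated (13.8%, against 4.72% of all genes) and 7 when intact (24.1%, against 2.2%), and 0 were lower in either by limma, against 6.08% and 4.11% of all genes. In either direction, 11 of the 29 had an unadjusted p under 0.05 in each of these comparisons, against 24.8% of all genes when ventilated and 20.9% when intact. Among the 9 genes of electron supply and haem, Hmox1, the inducible enzyme that degrades haem, had 10.41, 11.34 and 10.38 in ventilated and 7.83, 7.64 and 7.68 in intact Zmpste24-/- lungs, against 10.53, 9.13 and 10.04 in ventilated and 7.45, 7.40 and 7.77 in intact wild type lungs. It rose by 3.00 ± 0.30 in Zmpste24-/- lungs (adjusted p = 2.00e-05) and by 2.36 ± 0.30 in wild type lungs (adjusted p = 0.000455). Alas1, the rate-limiting enzyme of haem synthesis, was higher in intact Zmpste24-/- lungs by 0.48 ± 0.12 (adjusted p = 0.0262), and the electron carrier Cyb5a by 0.44 ± 0.09 (adjusted p = 0.014).

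Among the 12 nuclear receptors and transcription factors known to drive P450 genes, the circadian factors Dbp, Tef and Hlf fell with ventilation in Zmpste24-/- lungs, with differences of -2.86 ± 0.39, -1.03 ± 0.14 and -0.89 ± 0.14 (adjusted p = 0.000244, 0.000281 and 0.000888). In wild type lungs their ventilation differences were -0.93 ± 0.39, -0.50 ± 0.14 and -0.14 ± 0.14, which did not pass (adjusted p = 0.192, 0.0509 and 0.672). The time of day of sampling is not given. Tef and Hlf were higher in intact Zmpste24-/- than in intact wild type lungs, by 0.79 ± 0.14 and 0.65 ± 0.14 (adjusted p = 0.00599 and 0.0175), and these comparisons share the intact Zmpste24-/- arrays. Cebpb, an inflammatory factor, rose with ventilation in Zmpste24-/- lungs by 1.29 ± 0.14 (adjusted p = 4.24e-05) and was 0.93 ± 0.14 higher in ventilated Zmpste24-/- than in ventilated wild type lungs (adjusted p = 0.00114). Ppara, the fatty acid receptor that induces Cyp4a genes, was 0.48 ± 0.11 higher in the same comparison (adjusted p = 0.0118). With ventilation of wild type lungs Cebpb differed by 0.48 ± 0.14 without overlap, which did not pass (adjusted p = 0.0537). The interaction passed for 0 of these 12 genes by limma, with 6 at an unadjusted p under 0.05, against 11.7% of all genes.

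The flavin monooxygenases, another family of drug-oxidising enzymes, moved in opposite directions with ventilation. Fmo1 and Fmo5 fell in both genotypes, with differences of -0.55 ± 0.11 and -0.68 ± 0.08 in Zmpste24-/- lungs (adjusted p = 0.00452 and 6.40e-05) and of -0.86 ± 0.11 and -0.56 ± 0.08 in wild type lungs (adjusted p = 0.000587 and 0.000863). Fmo4 rose in both, by 0.45 ± 0.12 and 0.80 ± 0.12 (adjusted p = 0.0216 and 0.00175). The epoxide hydrolase Ephx1 fell in Zmpste24-/- lungs, with a difference of -0.48 ± 0.11 (adjusted p = 0.00634). Fmo2, the main lung form, was higher in Zmpste24-/- lungs by 0.33 ± 0.09 when ventilated and 0.33 ± 0.09 when intact (adjusted p = 0.0302 and 0.0433). Ptgis, prostacyclin synthase, which has a P450 fold without a Cyp symbol, fell with ventilation in Zmpste24-/- lungs, with a difference of -0.62 ± 0.12 (adjusted p = 0.00258) and was 0.44 ± 0.12 higher in intact Zmpste24-/- than in intact wild type lungs (adjusted p = 0.0405). Beside these changes, 8 of 8 neutrophil markers rose with ventilation in Zmpste24-/- lungs and 4 of 8 in wild type lungs, and 5 of 7 ciliated cell markers fell in Zmpste24-/- lungs. Of all genes 8.89% rose and 7.52% fell with ventilation in Zmpste24-/- lungs, and 3.67% rose in wild type lungs. The mean of the neutrophil list was 8.85 to 8.99 in ventilated and 6.89 to 7.75 in intact Zmpste24-/- lungs, against 7.52 to 8.06 in ventilated and 6.51 to 7.18 in intact wild type lungs. The ciliated list averaged 7.94 to 8.01 in ventilated and 8.40 to 8.89 in intact Zmpste24-/- lungs, against 8.11 to 8.36 in ventilated and 8.08 to 8.55 in intact wild type lungs. Their part in the P450 values was not tested.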

How the data were processed

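RNA from whole lung of 12 mice (3 in each of 4 groups, 1 array each) was measured on one-colour Affymetrix arrays; 100 ng of RNA was labelled with biotin, per the labels' protocols. The deposited values are log2 expression made by the authors with RMA, and limma is also named, per the submitters' processing notes; no versions or settings are stated there. They were used as deposited. Precision is limited by 3 arrays per group.

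Of 41345 probes, 23521 had 1 gene symbol, 1814 several and 16010 none in the platform annotation. Genes were named from probes with 1 symbol, 22180 in all; 6 probes with several symbols that included a Cyp gene stayed out of the tests. All 95 P450 genes matched the RefSeq gene table by gene ID. One mean per group was fitted to all genes with limma 3.58.1 in R 4.3.3 (lmFit, eBayes), with 5 contrasts and Benjamini-Hochberg adjustment over all genes at 0.05. Errors after ± are the standard errors of the fit. The scripts were tested on simulated data.

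Named genes were every P450 gene past the threshold, 6 lung P450s, liver-type genes at least 1 log2 unit above the others on wild type intact replicate 2, and listed genes related to P450 enzymes past the threshold. Cyp4b1-ps2, Cyp2a4, Cyp2r1, Cyp2c55, Cyp2c70, Cyp2d26 and Cyp2c38 were named after their values were seen. The P450 genes and all lists were chosen with earlier results of these data known. No array scan time or batch was given. Alternatives were filters on low values, other normalizations, the compared groups alone, a replicate block, each replicate left out, the mean of a gene's probes, an intensity trend and array weights.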

Additional observations from a re-analysis of the deposited data

How the results depend on the processing

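Counts of P450 genes past the threshold stayed within 1.5 times the reported ones under most alternatives. The exceptions were the genotype comparisons. In ventilated lungs the count was 12 with array weights (8 higher, 4 lower), against 6 as reported, all 6 of which were among the 12. In intact lungs it was 4 with the compared groups alone and 5 among genes above the median of mean expression, where 21 P450 genes were left, against 8 as reported. The causes of these changes were not tested. The compared groups alone use fewer arrays and the filter at the median uses fewer genes, while the fit with array weights used all of both. With 1 replicate left out, counts ranged from 7 to 10 for ventilation in Zmpste24-/- lungs, from 5 to 9 for ventilation in wild type lungs, from 5 to 10 between ventilated genotypes and from 4 to 8 between intact genotypes, and were 0 for the interaction.

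The labels do not say whether the replicate numbers pair the mice, and the fit took them as unpaired. Deviations of same-numbered arrays correlated from -0.129 to 0.153, over 0.1 in 2 of 12 pairs, and 5 of 12 arrays matched their own number best. With so few arrays per group these values cannot decide whether mice were paired. With a replicate block the counts were 9, 7, 6, 8 and 0 in the order above, and only Cyp20a1 lost its call (adjusted p = 0.0735).

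Of 29 gene results, 20 passed under every alternative that measured them. Over 591 alternative values 531 stayed past the threshold, 60 did not and 0 changed direction. The least stable were Cyp20a1 (lost in 14 of 21), Cyp2a5 and Cyp4a14 between intact genotypes (each in 11 of 19) and Cyp2b10 with ventilation in wild type lungs (8 of 21). The count of liver-type genes highest on wild type intact replicate 2 was 10 after quantile normalization and 12 otherwise.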

Other observations

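Some probes match several P450 genes and stayed out of the comparisons. The probe shared by Cyp4a10 and Cyp4a31, fatty acid hydroxylase genes of the same cluster as Cyp4a14, had 3.94, 7.80 and 5.13 on the intact wild type arrays and 3.52 to 3.94 on all others. The probe shared by Cyp2c67 and Cyp2c68 had 3.58, 4.81 and 3.75 on the intact wild type arrays and 3.60 to 3.86 on all others, while the probe of Cyp2c68 alone was 3.87 on wild type intact replicate 2, against at most 3.55 elsewhere. Both shared probes were therefore highest on the array with the strongest hepatocyte signal. The shared Cyp4a probe had the same order of the intact wild type arrays as Cyp4a14. The remaining shared probes of Cyp3a genes and of Cyp4a32 with Cyp4a10 lay between 3.05 and 3.80 on every array.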
